A study of Saccharomyces cerevisiae with 10 samples.

Results

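The comparison described here set budding yeast after 60 min of heat shock against the same strains before heating. It drew on 4 of the 10 arrays of a heat shock time course: the 60 min and the 0 min array of a KIN82 deletion strain, and the 60 min and the 0 min array of the wild type, which the labels name DBY8778. Each strain was sampled once at 0, 5, 15, 30 and 60 min, so that 1 array stood for each strain and time, and the strains served as the 2 members of each group. Every array had a reference RNA in its other channel. The sources used here give no makeup of that reference, no temperature, no medium and no further genotype. Both deletion arrays used for the comparison are titled as repeats, unlike those at 5, 15 and 30 min. The wild-type titles read heat_shock2, and the labels do not say what the 2 stands for. Strain and time course therefore cannot be told apart. Within the deletion, the repeat label also separates 0 and 60 min from 5, 15 and 30 min. Its changes at the early times, its return from 15 min and the sets of genes that use these times may thus compare different time courses. The same split enters the spread that the test uses. KIN82 itself was not analysed here.

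Budding yeast exposed to heat first shifts its transcription on a large scale. Hsf1 drives chaperone genes, and Msn2 and Msn4 drive a general stress programme, while genes for ribosomes and for growth are turned down. As the cells adapt, most of these changes fade, and growth resumes with an adjusted set of chaperones, enzymes and membrane proteins. Kin82 is a protein kinase that acts on the flippases that move lipids across the plasma membrane.

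Values are levels, meaning the deposited log ratio of an array after its median was subtracted, or changes, meaning a level at one time minus a level at another. The base of the logarithm is not stated and was read as 2. The deposited values do not state which channel is on top. Sample over reference is the likely direction, because 27 of 29 chaperone genes in the deletion and 26 of 29 in the wild type were higher at 15 min than at 0 min. They were also higher at 15 min than at 60 min in 27 of 29 cases in each strain. In bulk RNA, fewer cells with a transcript and less transcript per cell cannot be told apart. Of the genes in the table, 5744 had enough values for the test. The arrays held 5844 to 5949 values each, and their number limits the precision. The median absolute deviation of the levels was 0.349 and 0.366 on the 60 min arrays (deletion, wild type), against 0.416 and 0.364 on the 0 min arrays. Markers of MATa cells, MATalpha cells and sporulating cells held no gene called at 60 min, with 6, 3 and 5 genes tested. Over all genes 1.39% were called.

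After 60 min, 28 genes were higher and 52 were lower than before heating. These calls rest on limma with the strain as a block and a Benjamini-Hochberg adjusted p under 0.05, and make up 1.39% of the genes tested (0.487% higher, 0.905% lower). The fitted changes were 1.18 to 3.25 for the higher genes and -4.27 to -1.22 for the lower genes, so each was at least 2-fold. At 15 min, 23.6% of genes were called in the same model (9.51% higher, 14.1% lower). At an unadjusted p under 0.05, 907 genes passed at 60 min. No label gives separate cultures for these samples, so the p-values measure only a spread between arrays. That spread is what time and strain leave over in all 10 arrays, since each strain and time had 1 array.

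The direction of each of the 80 genes held under every alternative that gave a value. The genes were chosen for a large change, and several alternatives could hardly move it. For genes with values on all 4 arrays, the fits without the strain term and to the 4 arrays alone give the same change. The shared direction is therefore a description. The count depended on the scaling and on single arrays. It was 572 with the 4 arrays alone, 566 after quantile normalization (47.3% higher, against 35% here) and 514 after scaling the arrays to equal spread. The fit to the 4 arrays alone had 1 residual degree of freedom, and limma gave all genes 1 common spread there (standard deviation 0.29). Without the deletion's 60 min array 6 genes were called, without the wild type's 60 min array 13, without the deletion's 0 min array 14 and without the wild type's 0 min array 22. Without a 5 min array of either strain the count was 208, and without a 30 min array of either strain it was 53. The 6 genes called without each of the 4 arrays in turn were AHA1, BSC1, DBP2, GDH1, PRM7 and YDL038C. The other 74 lost their call without at least 1 of these arrays. Without the strain term 8 genes were called, all of them lower, and without both arrays titled repeat 8 were called. AHA1 lost its call in each of these (limma adjusted p = 0.06 and 0.112), whereas the other 5 of the 6 kept theirs.

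**Figure D1:**
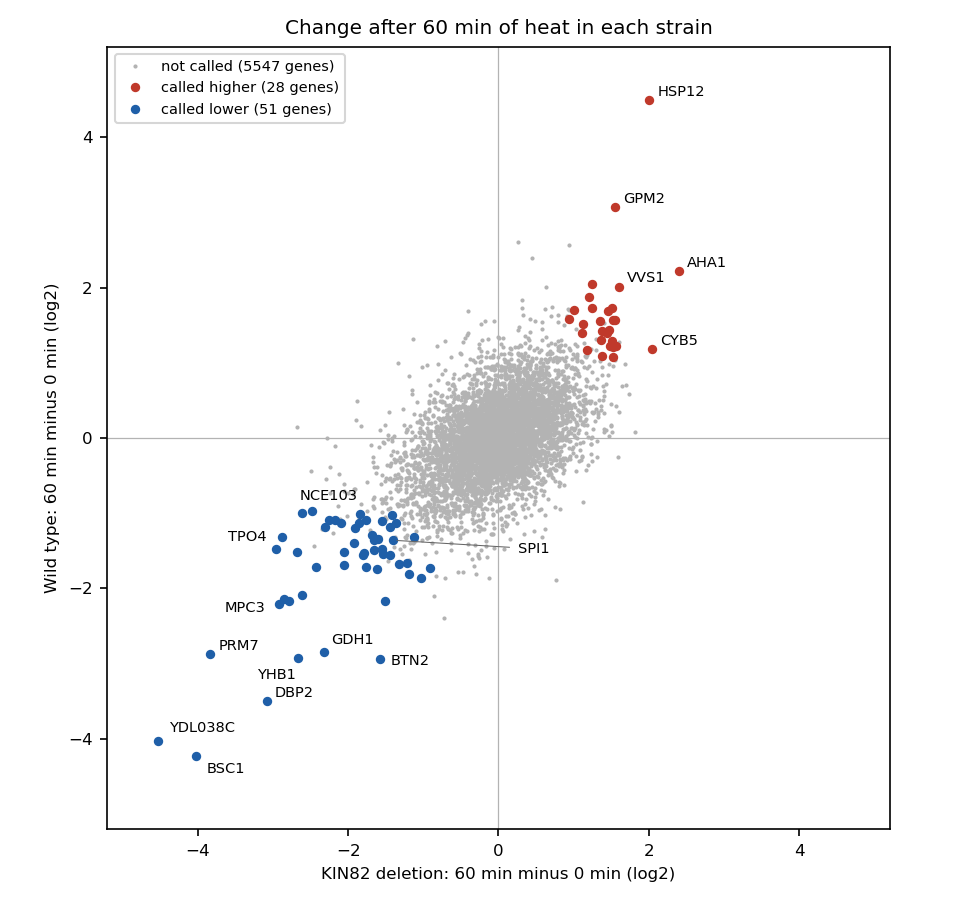
Change at 60 min against 0 min in the KIN82 deletion (horizontal axis, log2) and in the wild type (vertical axis, log2), 1 point per gene with values on all 4 arrays; red points are called higher, blue points called lower and grey points not called. The called genes lie in the corners where both strains have the same sign, with HSP12 at 2.01 and 4.49 at the top and YDL038C, with a fitted change of -4.27, near the bottom.

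AHA1 and HSP12 were 2 of the chaperone and stress genes still above their starting level at 60 min. AHA1, which stimulates the ATPase of Hsp90, had a level of 2.64 in the deletion and 3.12 in the wild type at 60 min, against 0.24 and 0.91 at 0 min. Both 60 min levels lay well above both 0 min levels. AHA1 rose by 2.31 ± 0.28 (SE), or 4.94-fold, with a limma adjusted p of 0.000471. With each of the 4 arrays left out in turn its change stayed between 2.23 and 2.38. It had already reached 3.26 and 3.86 at 5 min and 3.35 and 4.20 at 15 min (deletion, wild type), and it fell by 0.89 ± 0.28 between 15 and 60 min (limma adjusted p = 0.0317).

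HSP12, which encodes a small membrane-protecting stress protein, stood at 2.26 in the deletion and 3.69 in the wild type after 60 min, against 0.26 and -0.80 before heating. The groups did not overlap, but the strains differed in size, with changes of 2.01 in the deletion and 4.49 in the wild type. HSP12 rose by 3.25 ± 0.68, or 9.51-fold (limma adjusted p = 0.0304). The difference of the changes, deletion minus wild type, was -2.48 ± 0.67 and did not pass (limma adjusted p = 0.999). The change of HSP12 was 1.48 without the wild type's 0 min array, 3.03 without the deletion's 60 min array and 3.47 without the wild type's 60 min array, and its call was lost in all 3 cases. Without the deletion's 0 min array it was 5.02 and the call held. At 15 min its levels had been 2.95 in the deletion and 5.77 in the wild type. GPM2, a homologue of phosphoglycerate mutase, resembled it, with levels of 1.65 and 2.83 at 60 min against 0.10 and -0.24 at 0 min. It rose by 2.31 ± 0.48 (limma adjusted p = 0.0304), and its change was 3.22 without the deletion's 0 min array and 1.40 without the wild type's. The call of GPM2 was lost without the wild type's 0 min array and without either 60 min array.

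The chaperones as a group did not share the course of AHA1. Of 29 Hsf1-dependent chaperones and sorting factors, 20 were called higher at 15 min, against 9.51% of all genes. At 60 min only AHA1 was called higher and only BTN2 lower, against 0.487% and 0.905% of all genes. The median change of the 29 at 60 min was 0.19 in the deletion and -0.35 in the wild type, against -0.03 and 0.01 over all genes. At 15 min it had been 1.74 and 1.58. BTN2, which sorts misfolded proteins, had levels of 1.58 and 3.30 at 60 min (deletion, wild type), against 3.15 and 6.24 at 0 min. The groups overlapped, since the wild type's 60 min level exceeded the deletion's 0 min level, and it fell within each strain. BTN2 fell by 2.26 ± 0.39 (limma adjusted p = 0.0119), and by between 1.71 and 2.80 with 1 of the 4 arrays left out, the call being lost without either 60 min array or the wild type's 0 min array. Its 0 min level in the wild type was the highest of the array's called genes.

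The general stress genes had mostly left their peak as well. Of 32 targets of Msn2 and Msn4, 25 were called higher at 15 min, against 9.51% of all genes. At 60 min HSP12 was called higher, and HSP30 and SPI1 lower, against 0.487% and 0.905% of all genes. The median change of the 32 at 60 min was -0.26 in the deletion and 0.35 in the wild type. HSP30, a plasma membrane protein that restrains the proton pump Pma1, had levels of 0.17 and 0.28 at 60 min (deletion, wild type), against 2.60 and 1.99 at 0 min. The 0 min levels of HSP30 were both above its 60 min levels, and it fell by 2.07 ± 0.32 (limma adjusted p = 0.00497). Its change was -2.41 to -1.74 with 1 of the 4 arrays left out, and the call held only without the wild type's 0 min array.

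Storage carbohydrate genes were split. GLG2, a glycogenin that primes glycogen, had levels of 0.82 and 0.63 at 60 min against -0.71 and -0.93 at 0 min, and rose by 1.55 ± 0.31 (limma adjusted p = 0.0283). GSY1, a glycogen synthase, had -0.90 in the deletion at 60 min, against 1.69 and 3.0 at 0 min, and no value in the wild type at 60 min. Its fitted change was -2.50 ± 0.39 (limma adjusted p = 0.00636), and it rests on the deletion for its 60 min level. Over 21 genes of trehalose and glycogen metabolism these were the 2 calls, against 15 called higher at 15 min. Over all genes 1.39% were called at 60 min, and 9.51% were called higher at 15 min. GLG2 lost its call without any 1 of the 4 arrays, with changes of 1.29 to 1.80. GSY1 lost its call without the deletion's 0 min array (limma adjusted p = 0.113) and had no test without the deletion's 60 min array.

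**Figure D2:**
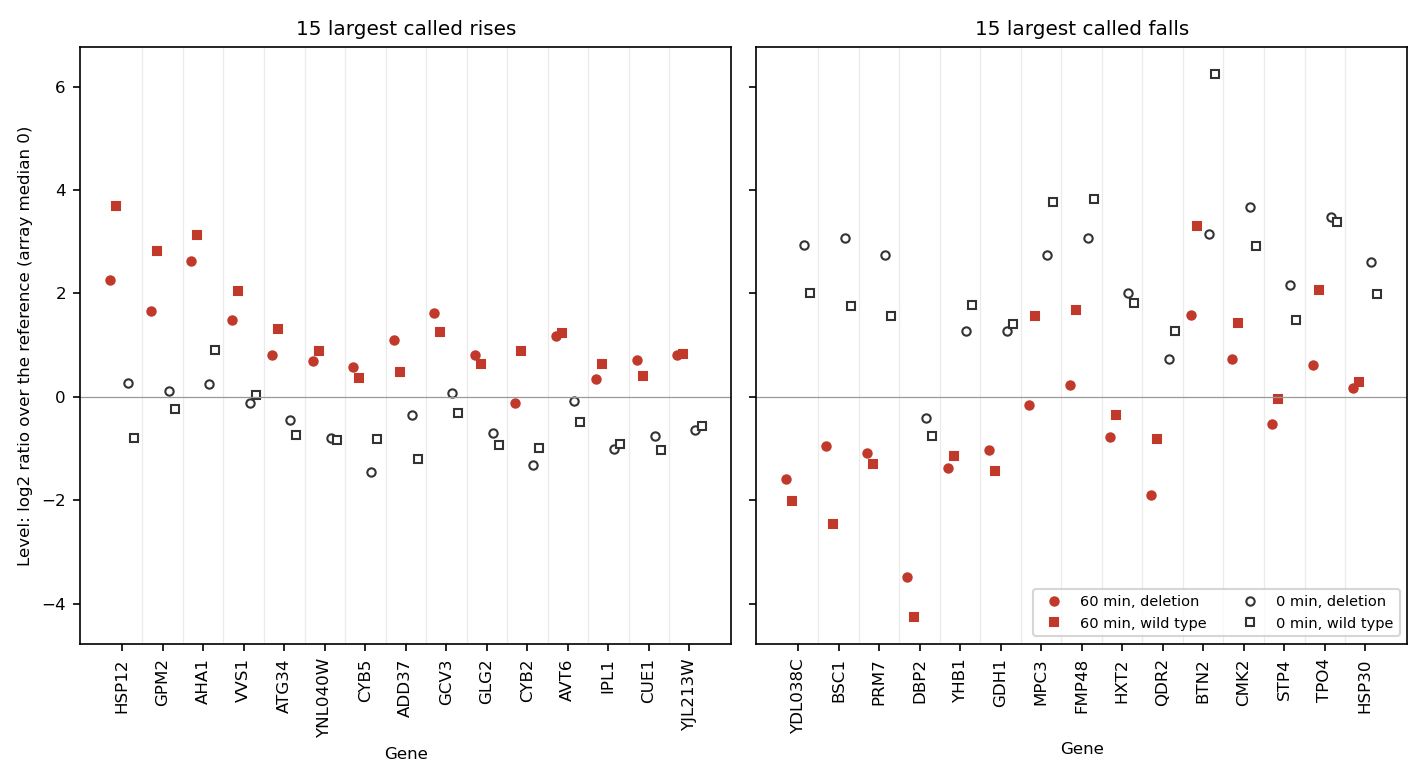
Levels (log2 ratio over the reference, array median 0) of the 15 largest called rises (left) and the 15 largest called falls (right), with the 60 min arrays as red filled symbols left of the 0 min arrays as open symbols; circles are the deletion and squares the wild type. HSP12 and MPC3 show wide gaps between the strains, whereas GDH1 lies between -1.44 and -1.04 at 60 min and between 1.28 and 1.40 at 0 min.

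Several enzymes and carriers of amino acid and carbon metabolism were among the called rises. CAR2, the ornithine transaminase of arginine breakdown, had levels of 0.60 and 0.71 at 60 min (deletion, wild type), against -0.93 and -0.50 at 0 min, and rose by 1.37 ± 0.31 (limma adjusted p = 0.0429). At 15 min it had reached 2.76 and 2.37. UGA1, the GABA transaminase, rose by 1.26 ± 0.29 and was the other called gene among 11 genes of aromatic, arginine and proline breakdown. Over all genes 1.39% were called. ARG3, the ornithine carbamoyltransferase of arginine synthesis, rose by 1.36 ± 0.30. CYB2, the lactate dehydrogenase of mitochondria, had levels of -0.12 and 0.88 at 60 min against -1.33 and -1.0 at 0 min, and rose by 1.54 ± 0.31. BDH1, a butanediol dehydrogenase, rose by 1.32 ± 0.28, and ODC1, a mitochondrial carrier of 2-oxodicarboxylates, rose by 1.23 ± 0.29. These genes were above their starting level on both strains' arrays, and each call was lost without any 1 of the 4 arrays. Their limma adjusted p-values lay between 0.0302 for CYB2 and 0.0483 for ODC1.

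GCV3, the H protein of the glycine cleavage system, was also higher. It had levels of 1.62 and 1.25 at 60 min (deletion, wild type), against 0.07 and -0.32 at 0 min. GCV3 rose by 1.56 ± 0.29 (limma adjusted p = 0.0195), and was at 1.65 and 1.59 at 30 min, so that its level had held between 30 and 60 min. Genes of vitamin synthesis included THI20, of thiamine synthesis, which rose by 1.39 ± 0.31, and SNZ2, of vitamin B6 synthesis, which rose by 1.35 ± 0.29. AVT6, an exporter of acidic amino acids from the vacuole, rose by 1.48 ± 0.30. ATG34, a receptor of selective autophagy, rose by 1.65 ± 0.36 and CUE1, which anchors a ubiquitin-conjugating enzyme at the endoplasmic reticulum, by 1.45 ± 0.30. All 6 were called at limma adjusted p-values of 0.0195 to 0.0429, and each lost the call without any 1 of the 4 arrays. VVS1 rose by 1.81 ± 0.35, ADD37 by 1.57 ± 0.31, YNL040W by 1.62 ± 0.35 and YJL213W by 1.42 ± 0.27. CTF19, a kinetochore protein whose frame overlaps IRC15 in the gene table, rose by 1.40 ± 0.31. These 5 rises had limma adjusted p-values of 0.0277 to 0.0419, and only VVS1 kept its call without 1 of the 4 arrays, the deletion's 0 min array.

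The deepest falls lay at 1 locus. BSC1 and PRM7 are neighbours in the RefSeq gene table. YDL038C is not in that table and lies between them by systematic name. Whether it is a gene separate from them was not tested. YDL038C had levels of -1.60 and -2.02 at 60 min (deletion, wild type), against 2.93 and 2.0 at 0 min, and fell by 4.27 ± 0.41, or 19.3-fold lower (limma adjusted p = 0.000181). BSC1 had -0.94 and -2.46 at 60 min against 3.08 and 1.76 at 0 min, and fell by 4.13 ± 0.44 (limma adjusted p = 0.00031). PRM7, a membrane protein gene that pheromone regulates, had -1.09 and -1.31 against 2.75 and 1.56, and fell by 3.36 ± 0.38 (limma adjusted p = 0.000408). In each gene both 60 min levels were below the reference and both 0 min levels above it. With 1 of the 4 arrays left out the changes ran from -4.54 to -4.01 for YDL038C, from -4.42 to -3.83 for BSC1 and from -3.92 to -2.79 for PRM7, and the calls held.

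DBP2, a DEAD-box RNA helicase, and GDH1, the NADP-dependent glutamate dehydrogenase that assimilates ammonium, took different routes to their low levels. DBP2 had levels of -3.50 and -4.25 at 60 min (deletion, wild type), against -0.41 and -0.76 at 0 min, and fell by 3.29 ± 0.39 or 9.78-fold (limma adjusted p = 0.000471). It had been at -4.06 and -4.79 by 15 min. GDH1 had -1.04 and -1.44 at 60 min against 1.28 and 1.40 at 0 min, and fell by 2.58 ± 0.30 or 5.99-fold (limma adjusted p = 0.000471). Its levels at 5 min were still 1.77 and 1.51, at 15 min 0.58 and -0.12 and at 30 min -0.10 and -0.88. In both strains GDH1 was lowest at 60 min. The changes with 1 of the 4 arrays left out were -3.43 to -3.15 for DBP2 and -2.91 to -2.25 for GDH1.

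YHB1, the flavohaemoglobin that detoxifies nitric oxide, was partway back. It had levels of -1.38 and -1.16 at 60 min (deletion, wild type), against 1.28 and 1.77 at 0 min, and fell by 2.79 ± 0.37 (limma adjusted p = 0.00158). Its levels at 30 min were lower still, at -3.32 and -2.65. The call of YHB1 was lost without either 60 min array, and its change lay between -3.05 and -2.54 with 1 of the 4 arrays left out. YHB1 and GPX2, a glutathione peroxidase that fell by 1.58 ± 0.31, were the 2 calls among 26 genes of oxidative stress defence. Over all genes 1.39% were called. GPX2 lost its call without any 1 of the 4 arrays, with changes of -1.72 to -1.43.

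Uptake and sugar metabolism contributed several falls. HXT2, a glucose transporter made at low glucose, had levels of -0.77 and -0.35 at 60 min (deletion, wild type), against 2.02 and 1.82 at 0 min. Both 60 min levels were below the reference and both 0 min levels above it, and HXT2 fell by 2.48 ± 0.34 (limma adjusted p = 0.00173). It was the 1 gene called among 14 hexose transporters, against 1.39% of all genes. The call of HXT2 was lost without the deletion's 60 min array. CDC19, the pyruvate kinase, had -0.63 and 0.05 at 60 min against 1.55 and 1.14 at 0 min, and fell by 1.63 ± 0.37 (limma adjusted p = 0.0447). HXK2, the hexokinase of glucose-grown cells, had -0.03 and 0.56 against 1.33 and 1.70, and fell by 1.25 ± 0.29 (limma adjusted p = 0.0452). These were the 2 called of 16 glycolytic genes, 13 of 15 of which lay below their 0 min level in both strains, against 32.9% of all genes. The median change of glycolytic genes was -0.71 in the deletion and -0.46 in the wild type at 60 min, and 0.01 and -0.09 at 15 min. The calls of CDC19 and HXK2 were lost without any 1 of the 4 arrays, and the change of CDC19 was -1.06 without the deletion's 60 min array.

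Other transporters and membrane proteins were lower too. QDR2, a multidrug transporter, fell by 2.35 ± 0.34 (limma adjusted p = 0.00338) and TPO4, a polyamine exporter, by 2.09 ± 0.37. PDR12, which exports weak acids, fell by 1.44 ± 0.29 and AGP1, a broad amino acid permease, by 1.51 ± 0.30. FET3, the copper oxidase of iron uptake, fell by 1.84 ± 0.37 and ENB1, a transporter of iron-enterobactin, by 1.55 ± 0.33. They were the 2 calls among 30 genes of the iron and copper regulon, against 1.39% of all genes called at 60 min. IPT1, which catalyses the final step of complex sphingolipid synthesis, fell by 1.5 ± 0.29 and was the 1 call of 33 genes of sphingolipid synthesis and flippases. Among signalling genes, the calmodulin-dependent kinase gene CMK2 had levels of 0.72 and 1.43 at 60 min (deletion, wild type), against 3.68 and 2.91 at 0 min, and fell by 2.22 ± 0.34 (limma adjusted p = 0.00497). STP4, a zinc-finger protein gene, fell by 2.10 ± 0.33, and FMP48, a mitochondrial protein kinase gene, by 2.50 ± 0.41. The limma adjusted p-values of these falls lay between 0.00338 and 0.0309. QDR2, TPO4, CMK2 and STP4 lost their calls without either array of the deletion, QDR2 and TPO4 also without the wild type's 60 min array, and the others without any 1 of the 4. The change of TPO4 was -1.34 without the deletion's 0 min array.

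The remaining falls were of cell wall and less studied genes. CHS1, a chitin synthase of cell wall repair, had levels of -0.02 and -0.37 at 60 min (deletion, wild type), against 1.42 and 1.18 at 0 min, and fell by 1.5 ± 0.34 (limma adjusted p = 0.0452). CHS1 and TIP1 were the 2 calls among 31 cell wall genes. TIR2, a mannoprotein that fell by 1.43 ± 0.30, was the 1 call among 20 hypoxic and seripauperin genes. Over all genes 1.39% were called. PHD1, a transcription activator of filamentous growth, had -0.14 and -0.12 against 2.12 and 0.97, and fell by 1.67 ± 0.34 (limma adjusted p = 0.0283). In CHS1 and PHD1 both 60 min levels were below the reference and both 0 min levels above it. TPO2, another polyamine exporter, fell by 1.5 ± 0.35, and its wild-type 0 min level of 1.54 was close to its deletion 60 min level of 1.14. The alanine transaminase homologue ALT2 fell by 1.54 ± 0.35, and the frame YDR112W, next to it by systematic name, by 1.22 ± 0.28. YDR112W is not in the gene table, so its overlap with ALT2 was not looked up. Whether its signal is separate from that of ALT2 was not tested. DIA1 and YJL107C overlap other frames in the gene table. DIA1 fell by 1.68 ± 0.30, as did YDL241W by 1.75 ± 0.32, YJL107C by 1.5 ± 0.33, EFM1 by 1.47 ± 0.33, TDA6 by 1.45 ± 0.32 and YOR385W by 1.43 ± 0.33. All of these were called at limma adjusted p-values of 0.0176 to 0.0483, and only YDL241W and PHD1 kept the call without 1 of the 4 arrays, the wild type's 0 min array.

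The protein synthesis genes had returned only in part. Cytosolic ribosomal protein genes had a median change of -0.88 in the deletion and -0.91 in the wild type at 60 min, after -1.91 and -2.58 at 15 min. At 60 min 130 of 135 were below their starting level in both strains, against 32.9% of all genes. Their median level was -0.43 and -0.55 at 60 min, against 0.50 and 0.40 at 0 min (deletion, wild type). Of the 135, 7 were called lower and 0 higher (limma, Benjamini-Hochberg), against 130 called lower at 15 min. Over all genes 0.905% were called lower at 60 min and 14.1% at 15 min. The 7 were RPS13, RPS2, RPL14A, RPS1B, RPS15, RPL38 and RPL16B. RPS13, of the small subunit, had -0.47 and -0.01 at 60 min against 2.14 and 0.98 at 0 min, and fell by 1.80 ± 0.37 (limma adjusted p = 0.0296), or by 1.08 without the deletion's 60 min array, where the call was lost. RPS2 had -0.83 and -0.22 against 1.23 and 1.29, and fell by 1.79 ± 0.36. The count of 7 was 86 with the 4 arrays alone and 72 after scaling to equal spread. It was 2 without the wild type's 60 min array, where RPS13 and RPL14A kept their calls, and 0 without any 1 of the other 3 arrays. RPL14A fell by 1.61 ± 0.34, and by 1.07 without the deletion's 60 min array. Several of these genes have near-identical copies, such as RPL14A, RPS1B and RPL16B, so that their probes may report more than 1 gene.

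Other parts of the translation apparatus lay below their starting level by smaller amounts. Translation factors had medians of -0.54 and -0.52 at 60 min (deletion, wild type), with 25 of 37 below in both strains and none called. Aminoacyl-tRNA synthetases had -0.36 and -0.60, with 12 of 17 below in both strains and none called. Of all genes 32.9% were below in both strains and 1.39% were called. At that share of calls, lists of this size may hold none. YEF3, elongation factor 3, had a change of -1.41 ± 0.36 (limma adjusted p = 0.0745), and the lysyl-tRNA synthetase gene KRS1 one of -1.18 ± 0.30 (limma adjusted p = 0.0748). ASC1, a ribosome-bound scaffold protein whose intron holds the snoRNA SNR24, fell by 1.65 ± 0.34 and RMT2, which methylates a ribosomal protein, by 1.68 ± 0.39. Both were called (limma adjusted p = 0.0283 and 0.0468) and lost the call without any 1 of the 4 arrays. Ribosome biogenesis genes had come closer to the start, with medians of -0.19 and -0.52 at 60 min against -2.08 and -2.35 at 15 min. Only DBP2 of the 73 was called at 60 min, against 1.39% of all genes. At 15 min 66 were called lower, against 14.1% of all genes. Of those 66 ribosome biogenesis genes 25 were within 0.5 of their starting level in both strains at 60 min, and of the 130 ribosomal protein genes called at 15 min 6 were. Among all 808 genes called lower at 15 min the share was 26.7%.

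Mitochondrial ribosomal protein genes ran the other way, with medians of 0.27 and 0.24 at 60 min (deletion, wild type). Of 69 genes, 39 were above their starting level in both strains, against 32.0% of all genes, and none was called. Amino acid biosynthesis genes held 1 called rise, ARG3, and 3 called falls among 52, against 0.487% and 0.905% of all genes. The falls were those of GDH1, of BAT1, a branched-chain aminotransferase (-1.66 ± 0.33), and of ARO3, of aromatic amino acid synthesis (-1.22 ± 0.28). BAT1 and ARO3 lost their calls without any 1 of the 4 arrays.

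**Figure D3:**
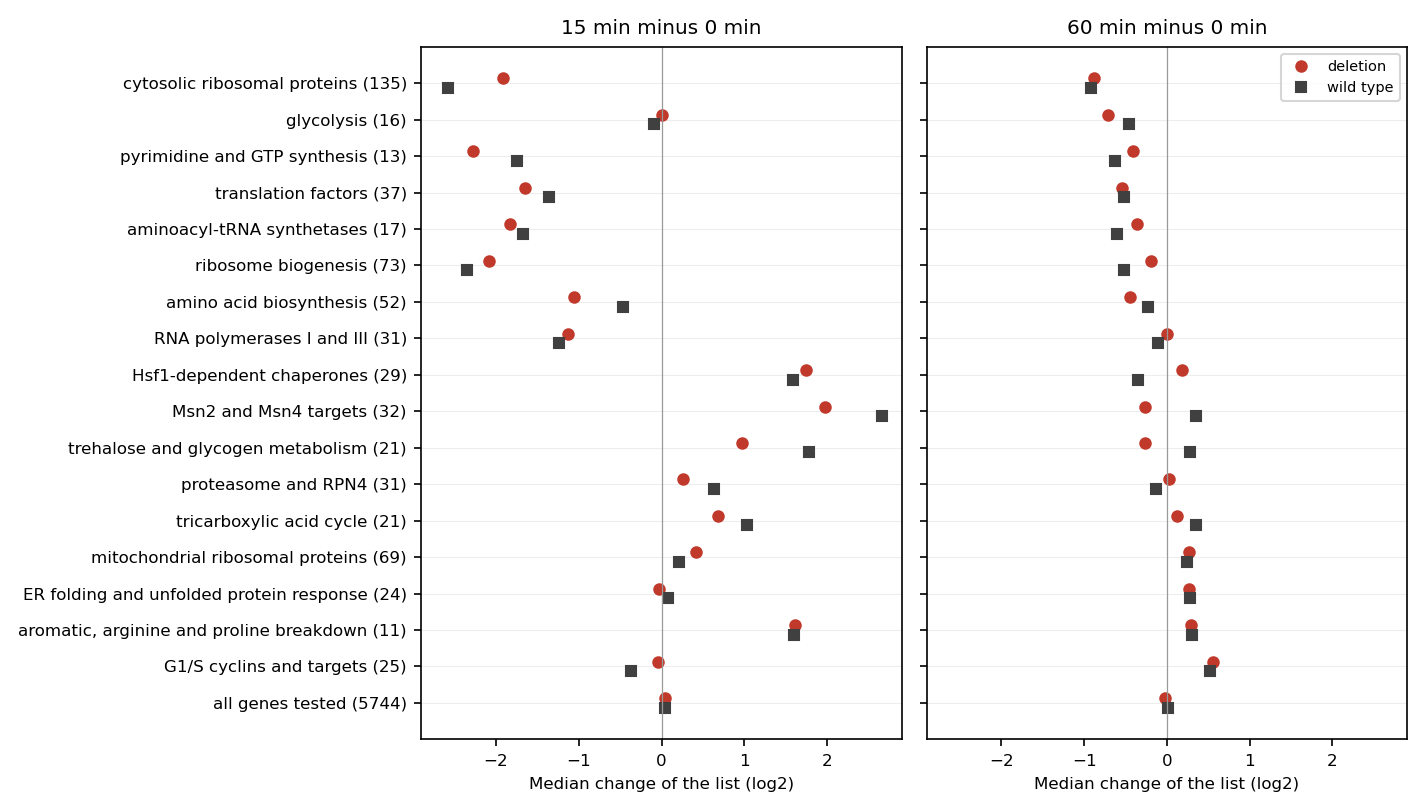
Median change of gene lists at 60 min and at 15 min against 0 min (horizontal axis, log2), for the deletion and the wild type. Cytosolic ribosomal protein genes are at -0.88 and -0.91 at 60 min after -1.91 and -2.58 at 15 min, and the G1/S list is at 0.56 and 0.53 after -0.04 and -0.36.

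The return can also be followed from the genes called at 15 min. The 546 genes higher at 15 min had a median change of 1.31 at 15 min and 0.31 at 60 min. Of these, 22 were still called higher or lower at 60 min, and 172 (31.5%) were within 0.5 of their starting level in both strains. The 808 genes lower at 15 min had a median of -1.65 at 15 min and -0.49 at 60 min, with 37 still called and 216 (26.7%) within 0.5. Compared directly with 15 min, 315 of the 546 were lower at 60 min (limma, Benjamini-Hochberg), against 8.57% of all genes, and 551 of the 808 were higher, against 12.1% of all genes. The 15 min arrays enter both the choice of these genes and this test, so these counts are a description.

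Of the 80 called genes, 66 had a lasting change, defined as the same sign at 60 min and in the mean of 5, 15 and 30 min in each strain. Of these, 24 were higher and 42 lower. The rule asks only for the sign of the early mean, not for its size or a call. The lasting genes thus include IPL1, PCL2, PSF3, SNZ2 and YNL040W, which were called at no earlier time. They also include PHD1, whose early mean in the wild type was -0.003. The 28 higher genes had median changes of 0.87 at 5 min, 1.5 at 15 min, 1.49 at 30 min and 1.43 at 60 min. The 52 lower genes had -0.66, -1.32, -1.72 and -1.67 at the same times. These comparisons share their 0 min arrays.

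The 52 genes that fell were, for the most part, genes whose level before heating was high. At 60 min 12 of 52 were above the reference in the deletion and 16 of 51 in the wild type, whereas at 0 min 51 of 52 were above it in each strain. Their median level was -0.67 and -0.36 at 60 min, against 1.49 and 1.27 at 0 min (deletion, wild type). Of the 28 genes that rose, 27 and 28 were above the reference at 60 min, against 6 and 4 at 0 min. The 0 min levels are part of the contrast that chose these genes, so these counts are a description.

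A smaller set of genes had passed beyond the starting level, with the mean of 5, 15 and 30 min on one side of it and 60 min on the other in each strain. Among called genes these were 6: CLN2 and MCD1 ended higher, and MPC3, NCE103, SPI1 and TIP1 ended lower. This rule leaves out HSP30 and GSY1, which were called higher at 5 min and lower at 60 min. Their changes at 5 min were 1.24 ± 0.32 and 1.38 ± 0.30 (limma adjusted p = 0.0247 and 0.0107). HSP30 had a negative early mean in each strain and so counts as lasting, and GSY1 had no wild-type value at 60 min. MPC3, a subunit of the mitochondrial pyruvate carrier, had levels of -0.17 and 1.56 at 60 min (deletion, wild type), against 2.75 and 3.76 at 0 min, after 4.63 and 4.42 at 15 min. It fell by 2.56 ± 0.39 below the start (limma adjusted p = 0.00497), and by 3.83 ± 0.39 from 15 min. The call against 0 min was lost without either array of the deletion, and its change was between -2.97 and -2.15 with 1 of the 4 arrays left out.

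NCE103, the carbonic anhydrase, had -0.38 and 1.66 at 60 min against 2.11 and 2.62 at 0 min, after 3.85 and 4.94 at 15 min. Both 60 min levels were below both 0 min levels, and NCE103 fell by 1.72 ± 0.35 (limma adjusted p = 0.0283), a change that ran from -2.26 to -1.19 with 1 array left out. The cell wall mannoproteins TIP1 and SPI1 went the same way. TIP1 had -1.33 and -0.57 at 60 min against 0.73 and 1.12 at 0 min, after 2.45 and 1.98 at 15 min, and fell by 1.87 ± 0.34 (limma adjusted p = 0.0176). SPI1 had 0.93 and 2.28 against 2.33 and 3.64, after 4.37 and 5.07 at 15 min, and fell by 1.38 ± 0.31 (limma adjusted p = 0.0429). Its groups nearly met, the wild type's 60 min level being just under the deletion's 0 min level. NCE103 kept its call without the wild type's 0 min array, while TIP1 and SPI1 lost theirs without any 1 of the 4.

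CLN2, a G1 cyclin, ran in the opposite direction. It had levels of 0.24 and 0.44 at 60 min (deletion, wild type), against -1.12 and -0.86 at 0 min, after -2.80 and -2.43 at 15 min. CLN2 rose by 1.33 ± 0.31, or 2.52-fold (limma adjusted p = 0.0462), and by 2.95 ± 0.31 from 15 min. MCD1, a cohesin subunit, had 0.24 and 0.49 at 60 min against -0.87 and -0.90 at 0 min, and rose by 1.25 ± 0.29 (limma adjusted p = 0.0452). Before that MCD1 had stayed near its start, with levels of -1.05, -0.54 and -1.11 in the deletion at 5, 15 and 30 min, and -1.29, -0.92 and -0.92 in the wild type. It enters the set by the sign of small early means, and at 15 min the deletion was above its start. With 1 of the 4 arrays left out CLN2 changed by 1.19 to 1.48 and MCD1 by 1.07 to 1.43, and neither call held.

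By size alone, 6 genes had changed by at least 1 on average at 5, 15 and 30 min and lay at least 0.5 on the other side of the start at 60 min in both strains. These were SPI1, HSP42, ALD4, LSP1 and SSA4, which ended low, and FYV7, which ended high. HSP42, a small heat shock protein, had levels of 1.87 and 2.34 at 60 min against 2.85 and 3.89 at 0 min, after 4.47 and 5.14 at 15 min. ALD4, the mitochondrial aldehyde dehydrogenase, had 0.82 and 1.74 against 2.75 and 2.41, after 4.88 and 5.27. LSP1, of the membrane-furrow structures called eisosomes, had 0.26 and 0.77 against 1.43 and 1.53, after 2.55 and 3.11. In all 3 both 60 min levels were below both 0 min levels. Their changes were -1.26 ± 0.32 for HSP42, -1.30 ± 0.35 for ALD4 and -0.96 ± 0.29 for LSP1, which did not pass (limma adjusted p = 0.0653, 0.0819 and 0.119). SSA4, a stress-induced Hsp70, had -0.62 ± 0.43 (limma adjusted p = 0.516), and its groups overlapped. FYV7, of rRNA processing, had -0.70 and -0.67 at 60 min against -1.34 and -1.35 at 0 min, a change of 0.66 ± 0.29 (limma adjusted p = 0.282). Against 15 min each of these genes had moved in limma, by -3.79 for ALD4, -2.94 for SSA4, -2.70 for HSP42, -2.32 for LSP1 and 1.60 for FYV7. The count of 6 was 1 after quantile normalization or scaling to equal spread, and 31 without both arrays titled repeat.

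**Figure D4:**
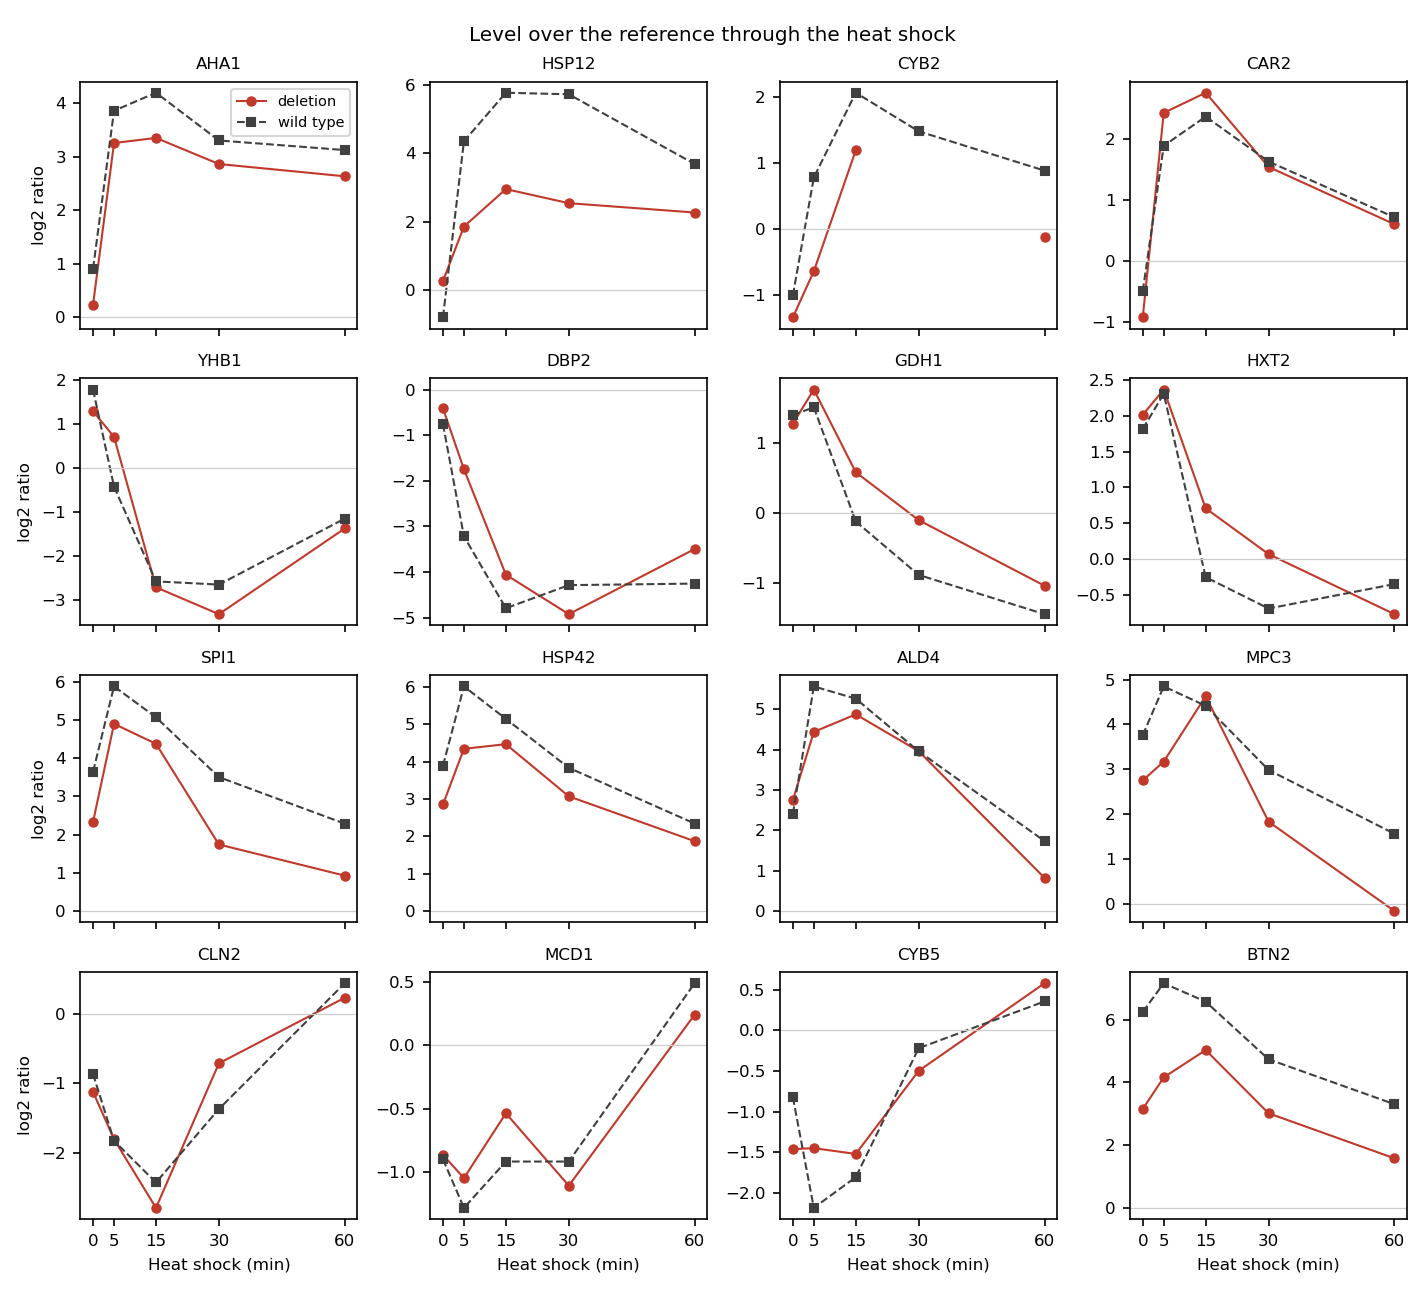
Levels (log2 ratio over the reference) of 16 genes at 0, 5, 15, 30 and 60 min in the deletion (red circles) and the wild type (grey squares), 1 array per point. AHA1 stays high and DBP2 stays low to 60 min, while SPI1, HSP42, ALD4 and MPC3 pass from above their 0 min level to below it, and CLN2 from below to above.

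The genes of the G1 to S transition formed the list with the most called rises by count among the 43 lists examined. By share it was not the first, since aromatic, arginine and proline breakdown had 2 called rises among 11 genes. Of 25 G1/S cyclins and targets, PCL2, CLN2 and MCD1 were called higher and none lower, against 0.487% of all genes called higher. In both strains 20 of 25 were above their starting level, against 32.0% of all genes. Their median change was 0.56 in the deletion and 0.53 in the wild type at 60 min, and -0.04 and -0.36 at 15 min. PCL2, a cyclin of the kinase Pho85, had levels of 0.47 and 0.33 at 60 min (deletion, wild type), against -1.04 and -0.96 at 0 min, and rose by 1.40 ± 0.29 (limma adjusted p = 0.0296). With the 4 arrays alone, or after scaling to equal spread, 10 of the 25 were called higher and 1 lower. Without any 1 of the 4 arrays 0 of the 25 were called in limma, PCL2 having changes of 1.32 to 1.48. Lists of G2/M genes, of M/G1 and daughter genes and of histones held no called gene, with 20, 15 and 10 tested. Above their starting level in both strains were 11 of 20 G2/M genes, 4 of 15 M/G1 and daughter genes and 4 of 10 histone genes.

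Late changes, called at 60 min and at no earlier time, were found in 11 genes, 8 higher and 3 lower. The calls at 5 min covered 8.52% of genes (3.75% higher, 4.77% lower) and those at 30 min 12.5% (4.32% higher, 8.14% lower). No theme was tested among them, and the genes described were chosen after their values were seen. IPL1, the Aurora kinase, had levels of 0.34 and 0.63 at 60 min against -1.0 and -0.92 at 0 min, and rose by 1.45 ± 0.31. IPL1 was not flat before 60 min: its wild-type level was 0.42 at 5 min, where the fitted change was 1.30 (limma adjusted p = 0.0529), and 60 min did not differ from 15 min past the threshold (limma adjusted p = 0.101). PSF3, a subunit of the replication complex GINS, had 0.34 and 0.48 against -0.84 and -0.69, and rose by 1.18 ± 0.27. BFA1, of the spindle position checkpoint, had 0.37 and 0.15 against -1.16 and -0.92, and rose by 1.30 ± 0.30. In these 3 genes both 60 min levels were above the reference and both 0 min levels below it, at limma adjusted p-values of 0.0361 for IPL1, 0.0452 for PSF3 and 0.0495 for BFA1. MCD1, PCL2, SNZ2, CYB5 and YNL040W were the other late rises. IPL1, PSF3, PCL2, SNZ2 and YNL040W also count as lasting, by the sign of their early means. ATG41, of autophagy, the GTPase activator gene GYP7 and BTN2 were the late falls. BTN2 and ATG41 were not flat earlier. BTN2 had a change of 1.10 ± 0.39 at 15 min (limma adjusted p = 0.0514). ATG41 had 1.22 ± 0.39 at 5 min and -1.19 ± 0.39 at 30 min (limma adjusted p = 0.0692 and 0.0608). IPL1, PSF3 and BFA1 each lost the call without any 1 of the 4 arrays.

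Across 5626 genes with values on all 4 arrays, 64.9% had the same sign in both strains. The change differed between strains in no gene after adjustment (limma, interaction term, smallest adjusted p 0.999), with 84 genes at an unadjusted p under 0.05. This test had 2 residual degrees of freedom and 1 array per strain and time, so that it shows neither a difference nor equal change. Of the 51 lower genes with values in both strains 36 fell further in the deletion, while of the 28 higher genes 12 rose further in the deletion.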

How the data were processed

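Arrays with a sample and a reference channel measured RNA of a KIN82 deletion and a wild type at 5 times of heat shock. The deposited table holds 1 log ratio per array and gene, read as log2, with the background correction, normalization and dyes by the authors not given in the sources used here. Each array was centred on its median (deposited medians -0.15 to 0.034). The 5983 rows were named by locus tag from the RefSeq R64 gene table, which matched 5484, and the other 499 kept their systematic names. Genes with both 0 min values and at least 8 of 10 arrays were tested, 5744 in all. limma 3.58.1 in R 4.3.3 fitted time and strain over all 10 arrays, leaving 4 residual degrees of freedom, and p-values were adjusted by Benjamini-Hochberg over all genes tested. The strain term pairs the arrays, as same-strain arrays share a label. On simulated data for this comparison, with 5744 genes, 93% of changes of 2 and 19% of changes of 1 (log2) were recovered. There were 6 false calls. These figures hold for the simulated noise only. They give no rate of false calls for the real arrays, where effects of the repeat label and of strain on the change were not tested by simulation.

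Named genes were the 15 largest called rises and falls with values on all 4 arrays and the same sign in both strains, the genes past their starting level by size, and up to 3 called members each way of each of 43 gene lists, or the 2 largest changes where none was called. Genes of the late and past-start sets, and others outside this rule, were named after their values were seen. The comparison, the lists and the members were chosen with earlier results of these data known. Alternatives were another scaling, no centring, other filters, no strain term, the 4 arrays alone, limma with trend, and each array left out.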

Additional observations from a re-analysis of the deposited data

Results flagged for a closer look

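In 11 gene lists the median change at 60 min against 0 min had opposite signs in the strains. The difference between the strains was not tested for any of these lists, and each median rests on 1 array per strain and time. Hsf1-dependent chaperones had 0.186 in the deletion and -0.35 in the wild type, and targets of Msn2 and Msn4 had -0.263 and 0.352. Genes of trehalose and glycogen metabolism had -0.261 in the deletion and 0.277 in the wild type, and purine synthesis genes had -0.578 and 0.204. Among protein turnover genes, the proteasome and RPN4 had 0.025 in the deletion and -0.132 in the wild type, and the ubiquitin system had 0.168 and -0.0445. Gluconeogenesis and the glyoxylate cycle had 0.083 and -0.114, and ergosterol synthesis -0.008 and 0.264 (deletion, wild type). Hypoxic and seripauperin genes had -0.181 in the deletion and 0.0615 in the wild type. Daughter and M/G1 genes had 0.107 and -0.142, and Ty elements and telomeric genes -0.132 and 0.243 (deletion, wild type).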

How the results depend on the processing

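The direction of the 80 called genes held under all 19 alternatives wherever a value could be had. These genes were chosen for a large change, and several alternatives could hardly move it, so this is a description. The counts did not hold. The count of 80 was 572 with the 4 arrays alone, 566 after quantile normalization, 514 with equal median absolute deviation, 8 without both arrays titled repeat, and 6 to 208 with each of the 10 arrays left out in turn. Without the replicate block, meaning without the strain term that pairs the arrays, it was 8. Lasting changes, 66 in the fit described, numbered 508 after quantile normalization, 457 with equal deviation, 8 without the block, 8 without both repeat arrays and 6 to 167 with 1 array left out. Called genes past their starting level, 6 in the fit described, numbered 14, 19, 0 and 0 under the same 4 alternatives, and 0 to 19 with 1 array left out. Genes past it by size numbered 1 after quantile normalization, 1 with equal deviation, 31 without both repeat arrays and 3 to 39 with 1 array left out. The count of genes that differed between strains was 0 wherever it was computed. With the 4 arrays alone no lasting or past-start count can be given, since these need the early times. The comparison of promoter motifs was not run. Where an array of the 4 was left out, its group held 1 array, assumed to vary like the others. The cause of these shifts was not tested. Fewer arrays leave fewer degrees of freedom, and the counts moved both up and down when arrays were left out.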

Other observations

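Lists of the endoplasmic reticulum, of the vacuole and of the tricarboxylic acid cycle had medians above 0 at 60 min in both strains, with no member called. Of all genes 32.0% were above their starting level in both strains, and 1.39% were called at 60 min. Of 24 genes of endoplasmic reticulum folding and the unfolded protein response 14 were above it in both strains, with medians of 0.26 and 0.27 (deletion, wild type). Of 19 autophagy and vacuolar protease genes 12 were above it in both strains, with medians of 0.11 and 0.42, while PRB1, a vacuolar protease gene, had a change of -1.02 ± 0.37 (limma adjusted p = 0.198). The tricarboxylic acid cycle list had medians of 0.13 and 0.35, with 12 of 21 above in both strains.

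DBP2 and CYB5, the cytochrome b5 gene, are neighbours in the gene table and went in opposite directions at 60 min, with DBP2 at -3.29 and CYB5 at 1.61. CYB5 had levels of 0.58 and 0.36 at 60 min (deletion, wild type), against -1.46 and -0.82 at 0 min, and rose by 1.61 ± 0.33 (limma adjusted p = 0.0296). Its call was lost without either 60 min array or the deletion's 0 min array, with changes of 1.17 to 2.05. Of 43 lists, 24 held no gene called at 60 min.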
